A study of Mus musculus with 2 samples.

Results

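Small nucleolar RNAs (snoRNAs) and small Cajal body RNAs (scaRNAs) with a gene name were examined in the nucleus of stimulated mouse macrophages. Members were the annotated genes whose symbol starts with Snora, Snord or Scarna and whose annotated class is snoRNA or scaRNA. The rule gave 149 genes of 55536 annotated genes: 98 Snord, 42 Snora and 9 Scarna. They carry 146 symbols, since Snora43, Snord80 and Snora16a each have 2 entries, and every member has 1 annotated transcript. A further 1409 genes of the same classes have other names and served as a comparison.

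RNA came from the nucleoplasmic fraction of bone marrow-derived macrophages, which are primary cells grown from the marrow of C57BL/6J mice. The cells were stimulated for 30 min with 100 ng/ml Lipid A, the part of bacterial lipopolysaccharide that innate immune receptors sense, and ribosomal RNA was depleted before total RNA sequencing. There was 1 group of 2 libraries: replicate 1, made from 1 µg of RNA, and replicate 2, made from 500 ng. The sex and the age of the animals were not collected, both libraries cite the same donor entry, and other labels call the fraction nuclear. Nothing but the word biological points to separate cultures, and the difference between the libraries could be technical. No unstimulated cells, other times or other fractions were analysed here, so no value below describes a response to Lipid A.

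Box C/D snoRNAs, named Snord, carry a C box near the 5′ end and a D box near the 3′ end, and guide 2′-O-methylation of target RNAs, mostly ribosomal RNA. Box H/ACA snoRNAs, named Snora, end in an ACA motif and guide the conversion of uridine to pseudouridine. scaRNAs, named Scarna, use the same chemistry on spliceosomal small nuclear RNAs in Cajal bodies, and some combine both kinds of domain. A few snoRNAs are needed for cleavage of the ribosomal RNA precursor instead. Most vertebrate snoRNAs are cut out of introns of host genes.

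Reads assigned to annotated genes summed to 15846212 expected counts in replicate 1 and 14874879 in replicate 2 in the deposited gene tables, which were derived from a transcriptome alignment, according to text files deposited beside them. The transcript tables made from the reads directly, called read-based tables here, summed to 21932480 and 25815351 estimated counts. The 6 macrophage markers had mean levels of 24.75 to 1880 TPM (a level per length, scaled so that all genes of a library have the same sum). Of 12 markers of B cells, T cells, fibroblasts and neutrophils, Col1a2 (11 and 10 expected counts) and Ngp (11 and 47) reached 10 counts in both libraries. The neutrophil markers S100a8 (1 and 9) and S100a9 (6 and 7) did not, and Cd79a, Cd3e and Cd3g had 0 expected counts in both libraries. In the read-based tables Col1a2 and Ngp again reached 10 counts in both libraries. There Ms4a1 (58.3 and 38.3 estimated counts), Cd3g (30.2 and 39.3) and Col1a1 (149 and 94.2) did so too. The rest of the 12 did not. The part of other cell types in the member values was not tested. In a bulk sample, fewer cells of a type and less RNA per cell cannot be told apart.

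Most of the named snoRNAs were not seen in the gene tables, and scaRNAs supplied most of the reads. Detection was set at 10 counts or more in both libraries. By expected counts, 13 of 149 members were detected: 4 of 9 Scarna, 5 of 42 Snora and 4 of 98 Snord. The share was 8.72% of members, against 1.42% of the other genes of these classes and 24.6% of all annotated genes. At least 1 library held a count for 29 members, and 120 stood at 0 in both. By estimated counts, 34 members were detected: 7 Scarna, 12 Snora and 15 Snord, which is 22.8% of members, against 6.39% of the other genes of these classes and 39.1% of all annotated genes. All 13 members detected by expected counts were among the 34, and 52 members stood at 0 in all 4 tables.

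Members together held 12870 expected counts in replicate 1, or 0.0812% of the library (95% Wilson interval 0.0798 to 0.0826%), and 7082 in replicate 2, or 0.0476% (0.0465 to 0.0487%). These intervals cover counting error only. In the read-based tables the sums were 14835 and 12160, or 0.0676% and 0.0471%. Scarna genes held 87.5% of the members' expected counts in replicate 1 and 90.2% in replicate 2. Scarna10 and Scarna2 alone made up 78.9% and 76.5%. Without them the members' expected counts summed to 2721 and 1663.

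Scarna10 and Scarna2, the members with the most counts, and Snord17 each hold a C box and a D box in the stretches shown. These motifs thus do not tell a scaRNA from a snoRNA. Of the 9 Scarna members, 2 have the annotated class snoRNA, Scarna10 among them. Sequences are those of the GENCODE M21 transcripts on mm10, written 5′ to 3′ in DNA letters, with the C box TGATGA, the D box CTGA or the terminal ACA in capitals. Scarna10 and Scarna2 are shown by their ends because of their length, and Snord17 is the Snord member with the most counts.
Scarna10, first 60 bases (chr6:125186624-125186683, minus strand): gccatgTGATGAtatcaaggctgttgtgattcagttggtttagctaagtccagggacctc
Scarna10, last 60 bases (chr6:125186359-125186418, minus strand): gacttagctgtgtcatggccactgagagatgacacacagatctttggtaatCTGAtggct
Scarna2, last 120 bases (chr3:108554338-108554457, minus strand): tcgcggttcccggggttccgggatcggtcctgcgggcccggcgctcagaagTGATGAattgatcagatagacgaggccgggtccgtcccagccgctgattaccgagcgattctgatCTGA
Snord17 (chr2:144265979-144266216, minus strand): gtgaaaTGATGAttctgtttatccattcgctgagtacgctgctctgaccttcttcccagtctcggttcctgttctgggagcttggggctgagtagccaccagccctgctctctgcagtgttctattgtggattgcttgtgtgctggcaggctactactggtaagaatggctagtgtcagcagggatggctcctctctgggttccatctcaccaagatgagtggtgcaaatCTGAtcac

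Scarna10 had the highest mean count of all members, ahead of Scarna2 in replicate 1 and behind it in replicate 2. In human cells it is a mixed box C/D and H/ACA scaRNA that guides modification of the U5 small nuclear RNA. The gene tables gave it 6206 expected counts in replicate 1 (95% exact Poisson interval 6053 to 6362) and 2613 in replicate 2 (2514 to 2715). The read-based tables gave 6425 and 4111. Replicate 1 was thus the higher library in both kinds of table, and the intervals did not overlap. Scarna10 is 325 bases long and lies inside Ncapd2, a condensin subunit gene, which had only 3.08 and 3.40 TPM where Scarna10 had 3510 and 1016 TPM.

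Scarna2, a box C/D scaRNA that guides methylation of the U2 small nuclear RNA in human cells, had the next highest mean count and the highest count of replicate 2 in both kinds of table. It had 3943 expected counts (3821 to 4068) in replicate 1 and 2806 (2703 to 2912) in replicate 2, and 4476 and 4190 in the read-based tables. At 414 bases it is the longest member, and it is one of 9 members that lie inside no host gene. Its C and D boxes stand in the last part of the transcript shown above, so the 5′ window searched for C boxes does not hold one.

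Scarna13 and Scarna6 followed. Scarna13, an H/ACA scaRNA of 275 bases in the non-coding host Snhg10, had 626 expected counts (578 to 677) in replicate 1 and 687 (637 to 740) in replicate 2. It was the only detected member of the gene tables with fewer counts in replicate 1 than in replicate 2, by intervals that overlapped, and its host had 0.20 and 0 TPM. Scarna6, of 265 bases, lies within Atg16l1, an autophagy gene that had 22.9 and 13.3 TPM. It had 485 expected counts (443 to 530) in replicate 1 and 285 (253 to 320) in replicate 2.

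The other 5 Scarna members stood at 0 in both gene tables. In the read-based tables Scarna17 had 15 and 24 estimated counts, Scarna9 had 10 and 25, and Scarna3a had 10 and 18. Scarna3b had 7 in each library, and Scarna8 had 0 in every table. All 4 Scarna members detected in the gene tables are longer than 150 bases, and none of the other 5 is.

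**Figure D1:**
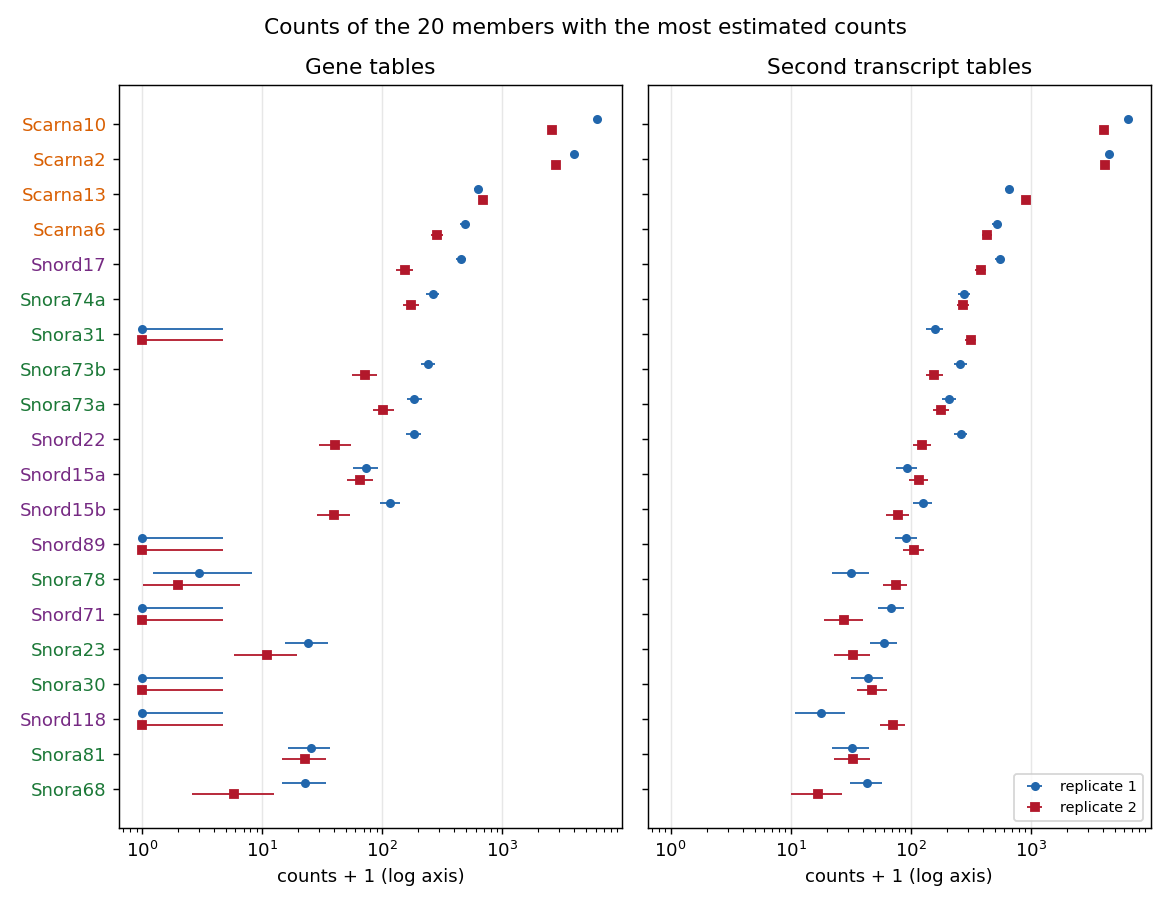
Counts of the 20 members with the highest mean estimated count, in the gene tables (left) and the read-based transcript tables (right), on a log axis of counts + 1. Points are the values of replicate 1 (circles) and replicate 2 (squares), bars are 95% exact two-sided Poisson intervals (up to 3.69 counts where the count is 0), and names are coloured by prefix (orange Scarna, purple Snord, green Snora). Scarna10 and Scarna2 lie highest in both panels, while Snora31, Snord89, Snord71, Snora30 and Snord118 stand at 0 counts in both libraries on the left.

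Among Snora members, the 3 with more than 100 expected counts in at least 1 library were Snora74a, Snora73b and Snora73a. Snora74a, a box H/ACA snoRNA of 196 bases, had 263 expected counts (232 to 297) in replicate 1 and 173 (148 to 201) in replicate 2. Its read-based counts lay closer together, at 278 and 273. An exon of another transcript on the same strand contains it, so reads of that transcript could be counted with it.

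Snora73a and Snora73b are copies of the H/ACA RNA also called U17, which takes part in processing of the small-subunit ribosomal RNA. They lie in the non-coding host Snhg3, and the copies equal each other at 198 of 205 bases (96.6%). They are shown together because reads from the shared stretches cannot be assigned to one copy with certainty.
Snora73a (chr4:132352775-132352979, minus strand): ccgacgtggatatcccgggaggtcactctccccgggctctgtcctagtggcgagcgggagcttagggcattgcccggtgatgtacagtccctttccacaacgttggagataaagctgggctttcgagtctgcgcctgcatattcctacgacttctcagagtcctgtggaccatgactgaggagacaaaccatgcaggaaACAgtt
Snora73b (chr4:132352322-132352526, minus strand): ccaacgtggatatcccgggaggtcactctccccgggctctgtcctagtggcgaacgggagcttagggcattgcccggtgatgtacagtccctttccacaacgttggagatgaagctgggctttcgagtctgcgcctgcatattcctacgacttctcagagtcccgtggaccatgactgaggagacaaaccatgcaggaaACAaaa

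Snora73b had 240 expected counts (211 to 272) in replicate 1 and 71.5 (55.4 to 89.6) in replicate 2, and 258 and 157 estimated counts in the read-based tables. Snora73a had 185 (159 to 214) and 102 (83.2 to 124) expected counts in the same order, and 207 and 179 estimated counts. Both copies were higher in replicate 1, with intervals that did not overlap in the gene tables. The host Snhg3 went the other way, at 3.20 and 6.19 TPM. Both copies also overlap Gm17300 on the opposite strand. The strand setting of the counting is not stated here, which leaves their counts uncertain in that respect too.

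Lower Snora levels were close to the detection limit. Snora81, inside the translation factor gene Eif4a2, had 24.3 and 21.8 expected counts. Snora23, inside the import receptor gene Ipo7, had 23 and 10, and it overlaps a gene on the opposite strand. Snora68 had 21.8 in replicate 1 and 4.78 in replicate 2, and so missed the limit. Snora9 (5.90 and 0) and Snora21 (3 and 1) completed the highest 8 Snora members.

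The 4 detected Snord members were Snord17, Snord22, Snord15b and Snord15a. Snord17, a box C/D snoRNA of 238 bases, more than any other Snord member, had 454 expected counts (413 to 498) in replicate 1 and 153 (130 to 179) in replicate 2. The read-based tables narrowed the gap to 550 and 382 estimated counts. It lies inside Snx5, a sorting nexin gene with 99.6 and 91.3 TPM.

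Snord15a and Snord15b (also called U15) guide methylation of the large-subunit ribosomal RNA and both lie inside Rps3, a ribosomal protein gene with 16.7 and 18.9 TPM. Snord22 (also called U22) was found in the frog Xenopus to be needed for maturation of the small-subunit ribosomal RNA, and lies inside the non-coding host Snhg1. Snord22 holds no TGATGA in its first 25 bases, as its sequence beside the Snord15 pair shows.
Snord15b (chr7:99479563-99479707, minus strand): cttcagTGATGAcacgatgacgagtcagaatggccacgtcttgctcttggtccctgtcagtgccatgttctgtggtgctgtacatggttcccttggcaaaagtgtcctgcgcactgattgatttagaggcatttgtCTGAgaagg
Snord15a (chr7:99482785-99482932, minus strand): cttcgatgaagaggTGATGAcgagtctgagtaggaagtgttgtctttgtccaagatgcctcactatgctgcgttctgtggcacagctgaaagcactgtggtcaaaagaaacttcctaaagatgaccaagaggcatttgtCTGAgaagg
Snord22 (chr19:8725866-8725991, plus strand): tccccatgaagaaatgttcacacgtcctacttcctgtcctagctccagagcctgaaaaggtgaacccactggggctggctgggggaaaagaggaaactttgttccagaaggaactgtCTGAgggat

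Snord15b had 116 expected counts (95.9 to 139) in replicate 1 and 38.8 (27.7 to 53.3) in replicate 2. Snord15a had 72 (56.3 to 90.7) and 65 (50.2 to 82.8), which overlap. These neighbours of nearly the same length in the same host thus differed in how far the libraries stood apart. An exon of another same-strand transcript contains Snord15b and none contains Snord15a. Snord22 had 183 (157 to 212) and 39.8 (28.6 to 54.5) expected counts, and 3 transcripts on the same strand have an exon that contains it.

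Levels per length ordered the members differently. TPM divides by an effective length, which is the annotated length less what fragments of the library take up. That effective length was 0 in the gene tables for 109 members in replicate 1, up to a length of 130 bases, and for 96 in replicate 2, up to 121 bases. Snord22 showed the consequence for a level: it had 183 expected counts and 0 TPM in replicate 1, and 39.8 expected counts and 1422 TPM in replicate 2, where its effective length was 1.34 bases. Snord15b reached 2644 and 415 TPM on effective lengths of 2.56 and 4.49 bases. In replicate 1, 4 members had counts above 0 beside 0 TPM. For these reasons levels of members are compared as counts, which are not scaled for length, and their TPM is given only beside the effective length or for the longer members.

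Length and counts moved together in the gene tables. All 10 members over 150 bases were detected, 2 of 30 from over 130 to 150 bases, 1 of 20 from over 100 to 130 bases, and none of 89 up to 100 bases. The 1 below 130 bases was Snord22. Of the other genes of the snoRNA and scaRNA classes, 12 of 54 over 150 bases were detected, and 7 of 505 from over 130 to 150 bases. Spearman's rho of length with the mean expected count was 0.62 over the 149 members, which share the libraries and whose names also track length: Snora members are 121 to 205 bases long, Scarna 70 to 414 and Snord 64 to 238. The longest member at 0 in both gene tables was Snora62, with 149 bases. The labels give a library size range of 250 to 400 without a unit, and the part of size selection in these counts was not tested.

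In the read-based tables the relation was weaker, with a rho of 0.38 over all members, 0.45 within Snora and 0.08 within Snord. The 10 members over 150 bases were again all detected, and so were 8 of 30, 5 of 20 and 11 of 89 in the shorter classes. Members of up to 130 bases summed to 187 and 42.8 expected counts in the gene tables, against 937 and 1002 estimated counts in the read-based tables, a ratio of 8.44 over both libraries. For members over 150 bases the same ratio was 1.25, and for all annotated genes it was 1.55. The gain was not particular to the members. MicroRNA genes (median length 89 bases) summed to 8.97 and 17.15 expected counts, against 338282 and 366352 estimated counts. Small nuclear RNA genes (median 107 bases) changed less, at 31232 and 35690 against 44076 and 60409. Other genes of the snoRNA and scaRNA classes included 476 of over 100 to 130 bases. Of these, 1 was detected by expected counts and 25 by estimated counts. By estimated counts, 14 of the 54 over 150 bases and 43 of the 505 from over 130 to 150 bases were detected.

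**Figure D2:**
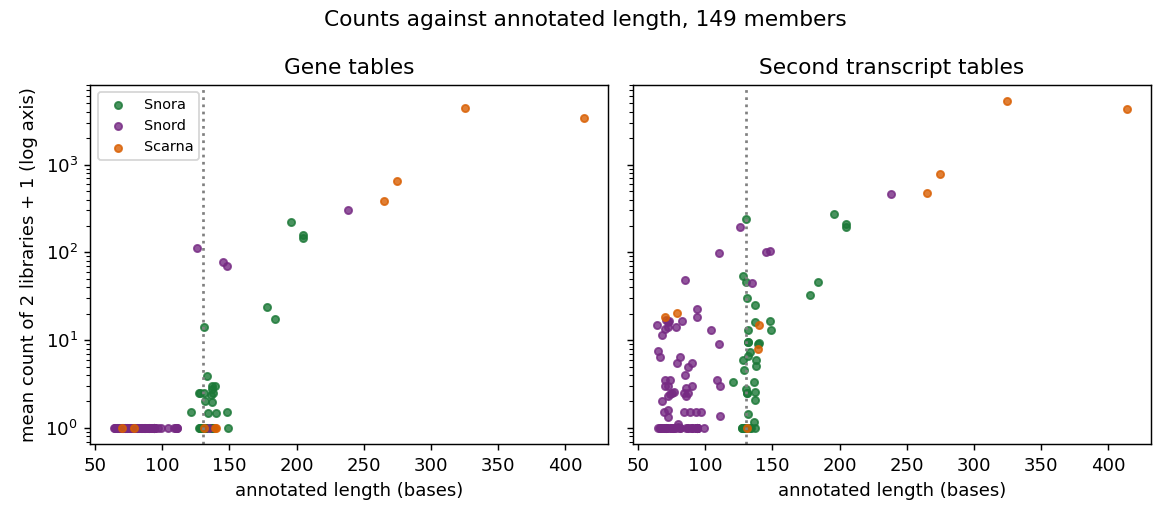
Mean count of the 2 libraries + 1 (log axis) against annotated length in bases for the 149 members, in the gene tables (left) and the read-based transcript tables (right), coloured by name prefix. The dotted line stands at 130 bases, the longest length given an effective length of 0 in replicate 1. Left of it the gene tables hold few counts, while the read-based tables place short Snord and Snora members well above 0.

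The read-based tables detected 21 members that the gene tables did not, and 17 of these stood at 0 expected counts in both libraries. Snora31, Snord89 and Snora78 had the largest gain. Snora31, an H/ACA snoRNA of 130 bases that guides pseudouridylation of the large-subunit ribosomal RNA in human cells, had 157 estimated counts (133 to 184) in replicate 1 and 315 (281 to 352) in replicate 2. Its host is Tpt1, at 152 and 174 TPM. Snord89, of 110 bases, had 91 (73.3 to 112) and 105 (85.9 to 127) estimated counts. Snora78 had 2 and 1 expected counts but 31 and 74 estimated counts. It lies in Snhg9, a host at 0 TPM in both libraries, and overlaps the ribosomal protein gene Rps2 on the opposite strand. Snord71 and Snora30 were named after their values were seen. Snord71, of 85 bases in Ap1g1, had 68 and 27 estimated counts, and Snora30 had 43 and 47.

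These members are shown because they carry complete boxes while at 0 in the gene tables, apart from Snord71, which lacks TGATGA near its 5′ end.
Snora31 (chr14:75847905-75848034, plus strand): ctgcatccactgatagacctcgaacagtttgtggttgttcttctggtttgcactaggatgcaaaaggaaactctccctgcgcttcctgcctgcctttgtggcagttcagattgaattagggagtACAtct
Snord89 (chr1:39548745-39548854, minus strand): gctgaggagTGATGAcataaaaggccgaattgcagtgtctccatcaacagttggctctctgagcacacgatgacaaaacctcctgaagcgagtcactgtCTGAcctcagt
Snord71 (chr8:109839295-109839379, plus strand): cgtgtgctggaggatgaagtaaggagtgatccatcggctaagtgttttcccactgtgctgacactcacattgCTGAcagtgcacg

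At the other extreme stood Scarna10, Scarna13 and Scarna6, whose read-based sums over both libraries were 1.19, 1.20 and 1.24 times those of the gene tables. The libraries differed in this: the ratios were 1.04, 1.06 and 1.08 in replicate 1, where all genes had 1.38, and 1.57, 1.33 and 1.53 in replicate 2, where all genes had 1.74. All 3 are longer than 250 bases.

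The snoRNAs needed for ribosomal RNA processing were represented by 9 of 12 listed genes, since Snord3a, Snord3b and Snord14b had no matching member. By expected counts, 3 of the 9 were detected, Snord22, Snora73a and Snora73b, whose values are given above. Snord118 (also called U8), known from Xenopus to act in maturation of the large-subunit ribosomal RNA, is 135 bases long and has no host gene. It stood at 0 expected counts in both libraries and had 17 estimated counts (9.90 to 27.2) in replicate 1 and 70 (54.6 to 88.4) in replicate 2. Its C box, unlike that of most Snord members, begins well inside the transcript.
Snord118 (chr11:69073427-69073561, plus strand): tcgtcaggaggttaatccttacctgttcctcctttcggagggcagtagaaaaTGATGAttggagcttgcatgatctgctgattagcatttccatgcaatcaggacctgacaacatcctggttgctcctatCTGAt

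Snord13 (also called U13), which acts on small-subunit ribosomal RNA in human cells and has no host gene either, had 0 expected counts and 6 and 18 estimated counts. Copies of U14, which acts in both methylation and processing of small-subunit ribosomal RNA, were near or at 0: Snord14c had 3.65 and 0 estimated counts, Snord14d had 2.65 and 0, and Snord14a and Snord14e had 0 in every table. Snord118 and Snord13 were thus higher in replicate 2, while Snord22, Snora73a and Snora73b were higher in replicate 1.

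The snoRNAs of the Rpl13a gene, known from mammalian cell lines as mediators of the response to lipid stress, were all at 0 in the gene tables. Rpl13a itself had 36.9 and 51.3 TPM. In the read-based tables Snord32a had 7 estimated counts in replicate 1 and 24 in replicate 2, and Snord35a had 4 and 5. Snord34 had 4 and 0, and Snord33 had 0.348 and 0.689. None of the 4 reached 10 counts in both libraries. They are 70 to 90 bases long, in the range where no member had an expected count.

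The largest family, the Snord116 repeat of the imprinted Prader-Willi region, had 17 members and 0 counts in all 4 tables. Sequence alone makes these copies hard to count, since 14 of the 17 have an identical copy among the members. Their host transcript Snhg14 was present, with 208 and 449 expected counts, or 4.05 and 7.05 TPM. Snhg14 is overlapped by 2 genes on the opposite strand, Ube3a among them, so its counts are uncertain. The copies are 94 bases long, and no member of up to 100 bases had an expected count, so their 0 in the gene tables sets no limit on their level. For counting error alone, a count of 0 is taken to leave up to 3 counts possible, or 1.89e-05% of the reads in replicate 1 and 2.02e-05% in replicate 2.

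The libraries kept a similar order of members. Pearson's r of log2(count + 1) between replicate 1 and replicate 2 was 0.97 over 149 members in the gene tables, with a rho of 0.80, and 0.95 with a rho of 0.87 in the read-based tables. Many members at 0 in both libraries enter these values.

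Levels did differ between the libraries. Counts were scaled by TMM, which sets library totals so that most genes have equal values, and ratios were taken for members at a mean of at least 10 counts. In the gene tables the median log2 ratio of replicate 1 over replicate 2 was 0.97 over 14 members, against −0.01 over all 14462 genes at that level and 0.66 over 29 other genes of the snoRNA and scaRNA classes. It was 0.56 for 4 Scarna, 0.97 for 6 Snora and 1.51 for 4 Snord members. Of the 14 members, 13 were higher in replicate 1, against 7134 of the 14462 genes and 19 of the 29 other genes of these classes. Beyond 2-fold, 7 of the 14 were higher in replicate 1, where 5.44% of all genes were, and none was higher in replicate 2, where 8.91% of all genes were. Snora68, 1 of these 7, reached the mean of 10 counts only through replicate 1 (21.8 and 4.78 expected counts). Of the 29 other genes of these classes, 12 were beyond 2-fold higher in replicate 1 and 6 in replicate 2. The largest ratios among members averaging 50 counts or more were those of Snord22 (log2 2.13), Snora73b (1.68) and Snord15b (1.51). The Poisson intervals, taken on unscaled counts, did not overlap for 6 of the 7. They did not overlap either for members within 2-fold such as Scarna2 and Snora73a. The same share over all genes was not computed, so the 6 add nothing to the fold counts. With 1 group no test was made, and a ratio compares these libraries only.

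For the same 14 members the read-based tables gave a median log2 ratio of 0.59, with 12 above 0 and 3 beyond 2-fold, all 3 higher in replicate 1. The ratio was nearer 0 than in the gene tables for 11 of the 14. The read-based tables also bring in more members, and over all 40 that average 10 counts or more the median was 0.10, against 0.00 over all 22940 genes at that level. Snora stood at 0.11, Snord at 0.12 and Scarna at −0.28. Above 0 stood 22 of the 40 members, against 11473 of the 22940 genes. Beyond 2-fold, 5 of 40 members were higher in replicate 1, where 6.12% of all genes were, and 5 were higher in replicate 2, where 8.1% of all genes were. The 5 higher in replicate 1 were Snord53, Snora68, Snord71, Snord22 and Snora23. The 5 higher in replicate 2 were Snord118, Snord32a, Snord13, Scarna9 and Snora78. Snord32a (7 and 24 estimated counts) and Snord13 (6 and 18) reached the mean of 10 only through replicate 2. Snord53 (19 and 7) reached it only through replicate 1. Members let in by the library where they are high add to these fold counts. Snord22, Snora68 and Snora23 exceeded 2-fold in both kinds of table. The median of the same 4 Scarna members was 0.37 in the read-based tables, and −0.28 with Scarna17, Scarna9 and Scarna3a, all 3 higher in replicate 2, included. Effective lengths in the gene tables were smaller in replicate 1 than in replicate 2 for every detected member, as for Scarna10 at 103 and 123 bases. The part of fragment length and of starting RNA in these ratios was not tested.

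**Figure D3:**
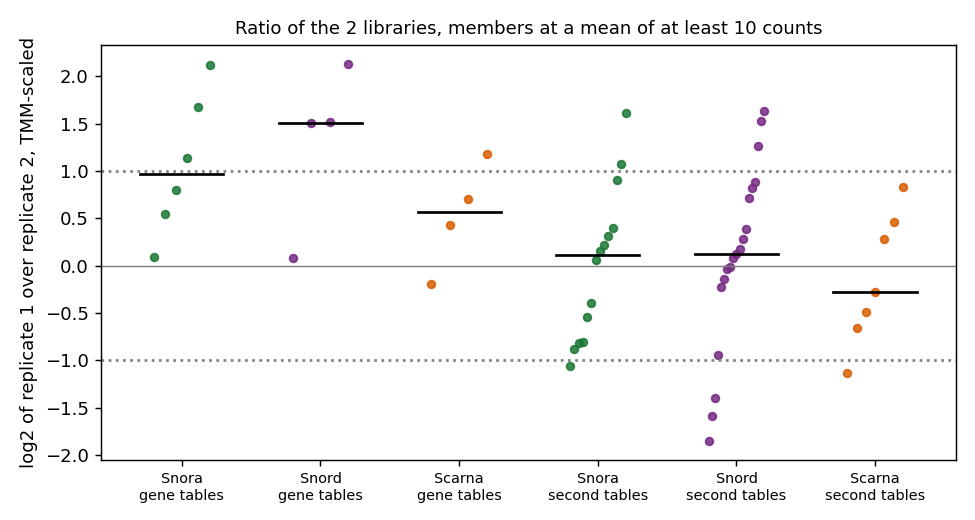
TMM-scaled log2 ratio of replicate 1 over replicate 2 for members at a mean of at least 10 counts, by name prefix, in the gene tables (left 3 columns) and the read-based tables (right 3 columns). Points are members, black bars are medians and dotted lines mark 2-fold. On the left 13 of 14 members lie above 0, and on the right 22 of 40 do. Of all genes at that level, 7134 of 14462 lie above 0 in the gene tables and 11473 of 22940 in the read-based tables.

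The boxes by which these RNAs are recognised were searched as plain letters on the sense strand of all 149 annotated transcripts. TGATGA stood wholly within the first 25 bases of 70 of 98 Snord members (71.4%), CTGA within the last 20 bases of 96 (98.0%), and both in 68 (69.4%). Of the other genes of these classes 17.2% held both, and of 3844 small nuclear RNA, miscellaneous RNA and microRNA genes of similar length 0.0260% did. ACA stood exactly 3 bases before the 3′ end of 35 of 42 Snora members (83.3%), against 18.7% of the other genes of these classes and 2.32% of the other short genes. No Snora member held the C box and none of the Snord members the terminal ACA at these places. Among 9 Scarna members, 4 held both C and D boxes and 2 held the terminal ACA. A missing match says only that these letters are not in the window.

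The boxes did not separate detected from undetected members by much. By estimated counts, 10 of 15 detected Snord members had the C box, against 60 of 83 not detected. All 15 detected members had the D box, against 81 of 83. The terminal ACA stood in 10 of 12 detected Snora members, against 25 of 30 not detected.

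**Figure D4:**
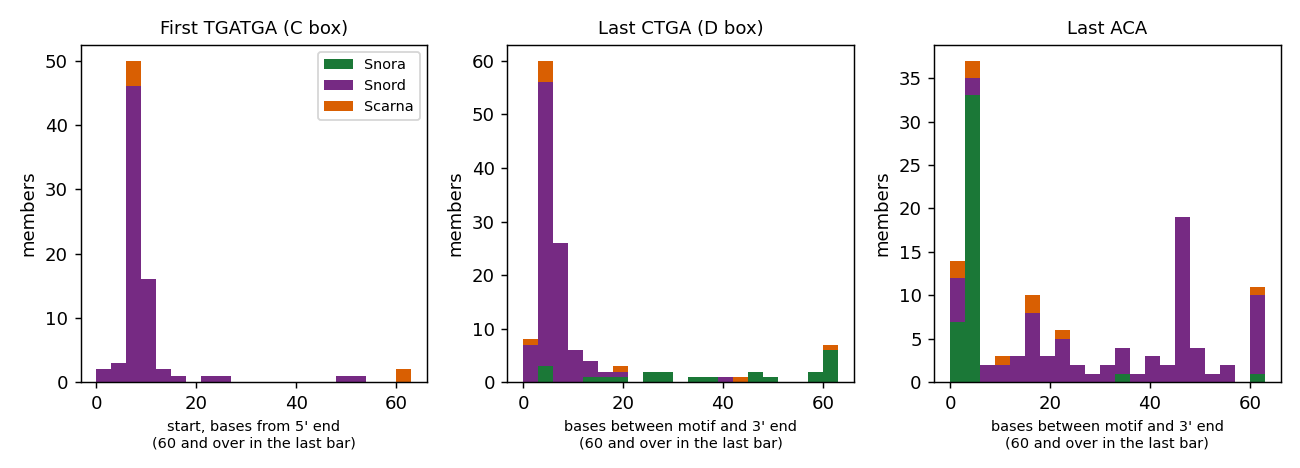
Positions of the first TGATGA from the 5′ end (left), and of the last CTGA (middle) and last ACA (right) from the 3′ end, for the 149 members in bins of 3 bases, stacked by name prefix; members without the motif are left out. Snord members pile up near the ends in the left and middle panels, with a median C box start at base 8 and 5 bases between the D box and the 3′ end, and Snora members pile up at 3 bases in the right panel.

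Nearly all members lie within other genes: 140 of 149 were inside a longer gene on the same strand, and these fell in 90 hosts, 24 of which held several members. Of the 140, 75 lay outside every exon of their host. An exon of another same-strand transcript contained 56 members, so a read could belong to either. Whether reads of unspliced host RNA were counted on the members outside every exon was not tested. Spearman's rho of host TPM with the member's count was 0.01 in the gene tables and 0.19 in the read-based tables. It was taken over 140 members that share hosts and libraries. Of the 149 members, 120 were tied at 0 in both gene tables and 54 in both read-based tables. Counts in the gene tables also followed length, with a rho of 0.62. The value of 0.01 therefore cannot show whether host and member levels are related. Scarna10 and Scarna13 had high counts in hosts below 4 TPM.

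Members were also grouped by the class of their host. In 22 ribosomal protein genes lay 30 members, of which 2 were detected in the gene tables and 6 in the read-based tables, at a median host level of 30.9 TPM. In 12 Snhg or Gas5 hosts, non-coding genes known mainly for the snoRNAs in their introns, lay 37 members, of which 4 and 5 were detected, at a median host level of 5.12 TPM. The 37 include the 17 Snord116 copies. Over all 149 members, 13 (8.72%) were detected in the gene tables and 34 (22.8%) in the read-based tables. The part of member length in the counts per host class was not tested.

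**Figure D5:**
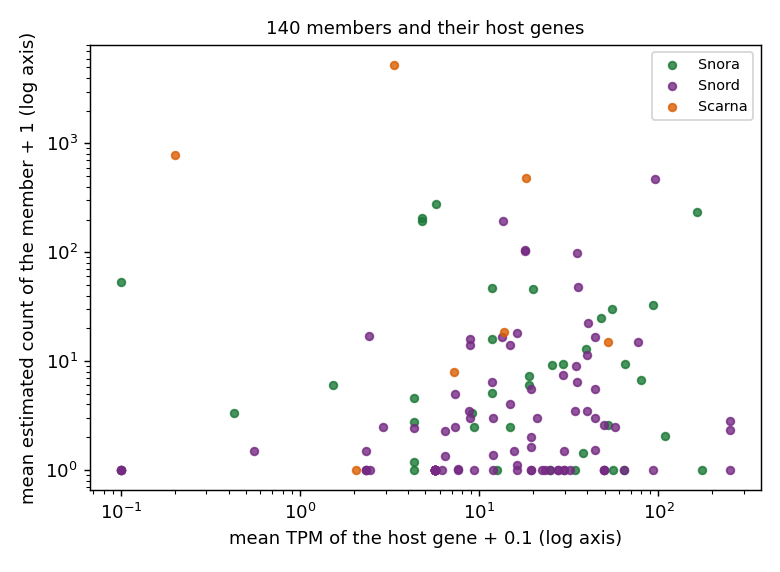
Mean estimated count of each member + 1 in the read-based tables against the mean TPM of its host gene + 0.1 in the gene tables, both on log axes, for the 140 members inside a host, coloured by name prefix. Members at 0 counts (bottom row) occur across the range of host levels, and Scarna10, the highest point, has a host near 3 TPM.

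Genes for the proteins that bind and assemble these RNAs were mostly detected: 19 of 20 had at least 10 expected counts in both libraries, where 49.8% of protein-coding genes and 24.6% of all annotated genes did. By TMM-scaled counts, none of the 19 was beyond 2-fold between the libraries, where 5.44% of all genes were higher in replicate 1 and 8.91% in replicate 2. All 4 box C/D core proteins were detected. Nop56, a scaffold protein of the box C/D particle, was the highest of the 20 listed genes at 23.5 TPM in replicate 1 and 15.2 TPM in replicate 2. Fbl, which encodes the methyltransferase fibrillarin, had 7.57 and 5.68 TPM. Of the 4 H/ACA core proteins 3 were detected. Nhp2 was the highest at 15.1 and 6.01 TPM, Dkc1, the pseudouridine synthase, had 4.24 and 4.20 TPM, and Gar1 missed the limit with 2 and 13 expected counts and got no ratio. In TPM, which was not scaled by TMM, Nhp2 and the assembly gene Shq1 (3.67 and 1.44 TPM) did stand more than 2-fold apart. By TMM-scaled counts Shq1 lay just within 2-fold, at a log2 ratio of 0.99, and Nhp2 stood at 0.88. All 12 assembly and Cajal body genes were detected, from Tgs1, the cap hypermethylase, at 17.8 and 12.1 TPM down to Coil, which encodes the Cajal body protein coilin, at 0.92 and 0.68 TPM. The median log2 ratio of these 19 detected genes was 0.05, against 0.97 for the 14 members.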

How the data were processed

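The authors deposited 1 gene table and 2 transcript tables per library, and name mm10 and GENCODE M21 in text files beside them, per the labels there. The deposited gene tables give expected counts and TPM, per the file headers. The other tables used were made from the reads directly, and their deposited values are estimated counts, per their headers; the remaining transcript tables were not used. Neither aligner, counter nor strand setting is given in the sources used; column names follow RSEM and kallisto.

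Member counts were summed per gene ID. Spike-ins and features without a gene name stayed out. After rounding, edgeR 4.0.16 under R 4.3.3 gave TMM scaling, with DESeq2 1.42.0 size factors as an alternative; the calling of ratios was checked on simulated data. Intervals used SciPy 1.17.1 (Python 3.11.15, pandas 2.3.3). The host was the shortest same-strand gene of a long class that contains the member. Snord43 has the class miRNA and was left out by the rule.

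Named members were the 8 highest Snora, 8 highest Snord and 6 highest Scarna members by mean expected count, as far as they had counts, the 3 largest ratios per direction between libraries and between tables at a mean of at least 50 counts, and the listed snoRNAs and protein genes. Members beyond this rule (Snord71, Snora30, Snord53, the lower Scarna members, and those named beside a count) were chosen after their values were seen, as were the sequences shown. The members and lists were chosen with earlier results of these data known. Alternatives were other detection limits, scalings, tables, pseudocounts and leaving out a library. With 1 group there was no test and no p-value.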

Additional observations from a re-analysis of the deposited data

How the results depend on the processing

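Of 80 alternative values for 25 results, 54 stayed close to the reported value, 23 moved and 3 reversed. Close means within 1.5 times for counts of members, and within the spread of the libraries or the counting error for other values. By this rule the 10 members beyond 2-fold in the read-based tables stayed close to the 7 of the gene tables. Their direction did not: 5 were higher in each library, against 7 higher in replicate 1 and 0 in replicate 2. The read-based tables moved most: detected members became 34 in all, 12 Snora, 15 Snord and 7 Scarna, and 8, 3, 5 and 8 in the 4 length classes up to 150 bases, where the gene tables gave 0, 0, 1 and 2. They brought the median log2 ratio of replicate 1 over replicate 2 to 0.10 for all members, 0.11 for Snora and 0.12 for Snord, and reversed it for Scarna, at −0.28, with 3 more members included (0.37 without them). Ratios of TPM gave 1.65, 1.86, 2.27 and, for Scarna, 1.18. A limit of 1 TPM in both libraries gave 9 detected Snora members. Spearman's coefficient with length was 0.38 in the read-based tables, and 0.55 to 0.58 when each library was left out in turn. Spearman's coefficient with host TPM was 0.19 in the read-based tables and changed sign, at −0.039 to −0.016, when each library was left out. Pearson's r between the libraries was 0.77 on log2(TPM + 1), 0.75 on log2(TPM + 0.1) and 0.96 for members averaging 10 counts or more. The size factors of DESeq2 were exactly 1 in both gene tables, so factors of 1.035 and 0.966 from genes averaging 50 counts or more were added after seeing the data; they changed the sign of no median. The cause of the other changes was not tested. No paired analysis was possible because there is only 1 group. Depth limits members under 10 counts, where counting intervals are wide.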
